A study of Homo sapiens with 3 samples.

Results

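The subject is a set of 10 genes that license replication origins: MCM2, MCM3, MCM4, MCM5, MCM6, MCM7, MCM10, CDC6, CDT1 and GMNN. They were chosen by function, as helicase and origin licensing genes that textbooks list as E2F targets, out of 20033 protein-coding genes. Earlier results of these data were known when the set was chosen. For each gene, all peaks from 5 kb upstream to the gene's end were collected from a CHD8 and a TRRAP peak list. The lists come from chromatin immunoprecipitation followed by sequencing (ChIP-seq) in wild-type human neural stem cells. The cells were made from the embryonic stem cell line H9 and grown with 20 ng/ml EGF and 20 ng/ml FGF. Chromatin was fixed with 2 mM disuccinimidyl glutarate and then 1% formaldehyde. CHD8 and TRRAP were each precipitated in 1 library, beside an IgG control that was not analysed here, so no value has a replicate error. No RNA was measured, so the neural identity of the cells could not be checked against markers.

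Licensing prepares each origin to fire once per cell cycle. The origin recognition complex and CDC6 receive the MCM2 to MCM7 ring together with CDT1 and load it onto DNA, MCM10 helps to activate the loaded helicase at firing, and geminin (GMNN) binds CDT1 and blocks further loading. E2F factors drive many of these genes in dividing cells as they pass from G1 to S phase, and neural stem cells divide. CHD8 is an ATP-dependent chromatin remodeler, and TRRAP is a large scaffold of the TIP60 and SAGA acetyltransferase complexes that MYC and E2F factors contact. The study's title names a CHD8 and TRRAP axis in the regulation of MYC and E2F target genes.

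All 10 genes carried a CHD8 peak at the promoter (within 1 kb of the canonical start site), beside 55.9% of all protein-coding genes. TRRAP peaks lay at 7 of the 10 promoters, beside 34.9% of protein-coding genes, and the same 7 genes had both, beside 34.0%. MCM6, MCM10 and GMNN had CHD8 without TRRAP. Among genes with CHD8 at the promoter, 60.7% had TRRAP too. The promoters of the set are rich in CpG: the ratio of observed to expected CpG ran from 0.685 (CDC6) to 0.980 (MCM6), with a median of 0.834 against 0.725 over all genes. Among all protein-coding genes with a ratio of at least 0.6, 77.7% had CHD8 and 48.8% had both. The 95% Wilson interval of 7 in 10 runs from 39.7% to 89.2% and holds the 48.8% of that CpG-rich background. The 10 genes were chosen and not drawn at random, so the interval only shows how coarse a share of 10 genes is. A difference from the background was not tested.

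The promoters were then read for the sequence that E2F factors bind. E2F words of 8 letters (TTTCCCGC, TTTGGCGC, TTTCGCGC and TTTGCCGC) were searched on both strands, without mismatch, from 250 bp before to 50 bp after the start site. They were present in 8 of the 10 genes, beside 4.36% of all protein-coding genes. The exceptions were MCM10 and GMNN. The genes were chosen as E2F targets, so the choice itself favours such words and the gap is not an independent result. The words are printed in 28 bases of GRCh38 each, read along the gene 5′ to 3′, with the E2F word in capitals, because the results on summits and on TRRAP are described against them. None is shown for MCM4.
MCM2, chr3:127598405-127598432, plus strand: gaaccactTTTCGCGCGAAAcctggttg
MCM3 upstream word, chr6:52284899-52284926, minus strand: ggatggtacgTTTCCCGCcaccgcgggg
MCM3 start site word, chr6:52284729-52284756, minus strand: gttcggaagtTTTCGCGCcggggtggag
MCM5 upstream word, chr22:35399933-35399960, plus strand: gccagaagTTTCGCGCCAAAttgttccg
MCM5 start site word, chr22:35400126-35400153, plus strand: gcctcttgttTTTCCCGCgaaactcggc
MCM6 distal word, chr2:135876576-135876603, minus strand: gctttgcaTTTGGCGCGAAAtccctttc
MCM6 proximal word, chr2:135876514-135876541, minus strand: tggtcaggTTTGGCGCGAAAtctccagc
MCM7 upstream word, chr7:100101567-100101594, minus strand: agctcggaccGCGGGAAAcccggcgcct
MCM7 start site word, chr7:100101389-100101416, minus strand: gggggcgacgTTTCGCGCcaatttcggt
CDC6, chr17:40287876-40287903, plus strand: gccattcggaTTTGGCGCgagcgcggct
CDT1, chr16:88803744-88803771, plus strand: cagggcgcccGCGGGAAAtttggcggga

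In MCM2, MCM5 and MCM6 the capitals run over 12 letters, because a word on one strand shares 4 letters with a word on the other. This double form was picked out after the sequences had been read. It occurred at the start sites of 7 of 20033 protein-coding genes (0.0349%), and 3 of those 7 were MCM genes. MCM6 held it at 2 places, starting 152 and 90 bp upstream of its start site. In MCM7 and CDT1 the words in capitals that read GCGGGAAA are TTTCCCGC on the opposite strand.

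**Figure D1:**
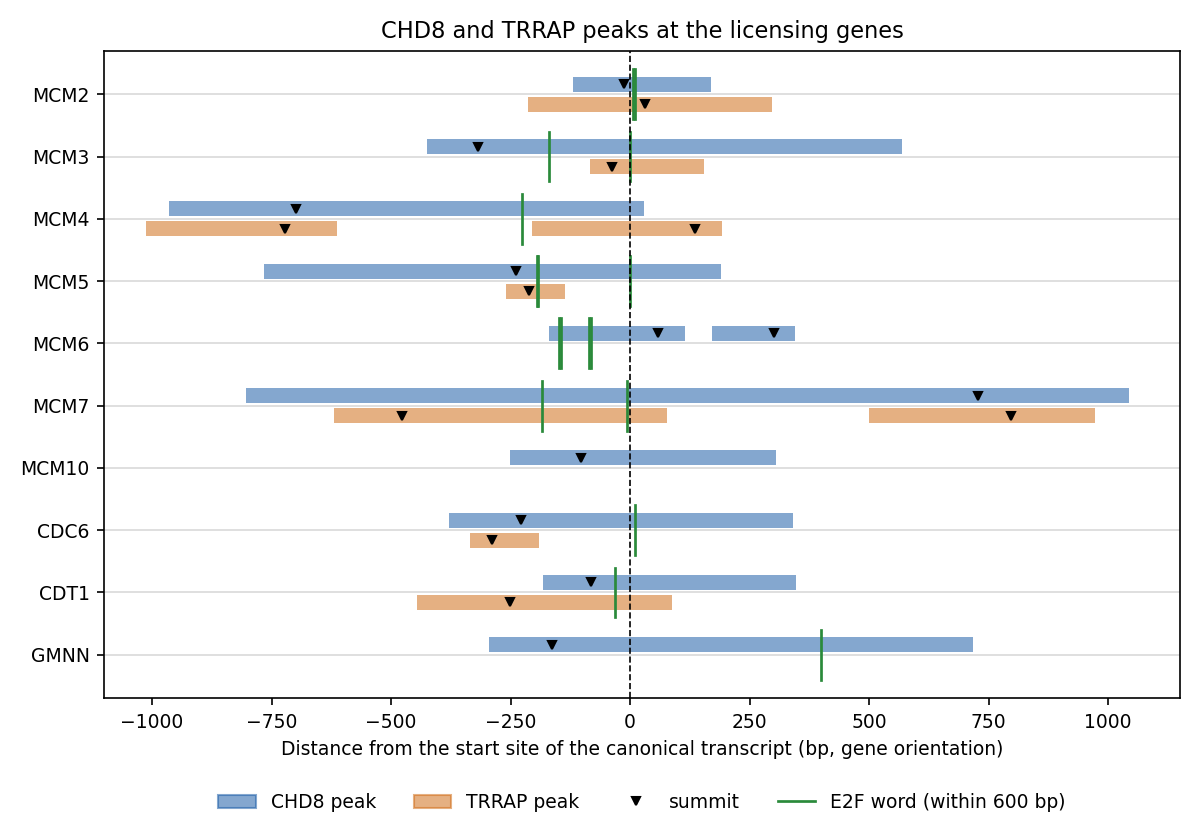
Peaks (bars), summits (triangles) and 8-letter E2F words (green lines) at each gene, on a scale of distance from the canonical start site in bp, in the direction of the gene. All 20 peaks touch the promoter window, the CHD8 bars span the start site in all 10 genes, and MCM6, MCM10 and GMNN have no TRRAP bar.

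The 10 gene regions span 268 kb in all and held 11 CHD8 and 9 TRRAP peaks, every one of which touched a promoter window. Outside the promoter windows, gene bodies and upstream sequence held 0 further peaks of either list. Over all protein-coding genes, 24.3% had a CHD8 peak and 15.2% a TRRAP peak in the region outside the promoter window. Of those with a promoter peak of the same list, 28.8% (CHD8) and 19.4% (TRRAP) had a further peak there. These shares were not matched for gene length. MCM7 hosts the hairpins of MIR106B, MIR93 and MIR25 in its body. The nearest CHD8 peak lay 4545, 4320 and 4112 bp from them, at 100088742 to 100089448, which is 2785 bp past the end of MCM7. The promoter peak of MCM7 in the CHD8 list was 6279, 6506 and 6710 bp away. All 9 TRRAP peaks overlapped a CHD8 peak, beside 86.8% of the whole TRRAP list. The closer comparison is with promoter peaks. Of the strongest TRRAP promoter peaks of all protein-coding genes, 6647 of 7000 overlapped a CHD8 peak, so such overlap was usual at promoters. Of the 11 CHD8 peaks 7 overlapped a TRRAP peak, beside 48.6% of the whole CHD8 list. The whole lists also hold peaks away from promoters. MCM6 had 2 CHD8 peaks at its promoter, as 23.2% of genes with CHD8 did, and MCM4 and MCM7 had 2 TRRAP peaks, as 23.8% of genes with TRRAP did.

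Peak heights are given as the authors' fold and as the number of DNA fragments over the summit that the fold and p-value imply. Folds of the 2 lists have different backgrounds and are read only within their list. The lowest peak of the CHD8 list had 10 fragments and that of the TRRAP list 9, so a promoter below that level could not enter a list. Over all genes with a promoter peak, the median was 26 fragments (fold 11.96) for CHD8 and 17 fragments (fold 8.65) for TRRAP. The licensing genes had medians of 22.5 fragments (fold 10.4) and 18 fragments (fold 9.12). For CHD8, 4 of 10 genes lay above the median fold of all promoter peaks, and for TRRAP 4 of 7, so heights at licensing promoters lay on both sides of the middle in each list. Peaks above the median rank of their list were found at 7 of 10 genes for CHD8 (beside 42.5% of all genes), at 4 for TRRAP (beside 19.5%) and at 2, MCM4 and MCM7, for both (beside 16.7%).

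MCM7, a helicase subunit, had the strongest peaks of the set in both lists. Its CHD8 peak (chromosome 7, 100100353 to 100102201) had a fold of 26.1 and 58 fragments (95% interval 44.04 to 74.98). At 1849 bp it was the widest of the set, wider than 98.97% of promoter peaks. The strongest TRRAP peak, at 100100424 to 100100898, reached a fold of 20.1 with 41 fragments (29.4 to 55.6) and ranked 739 of 14735. Its second, at 100101320 to 100102017, reached 11.5 with 23 fragments (14.6 to 34.5).

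The MCM7 summits did not sit on the canonical start. The strongest CHD8 and TRRAP summits lay 727 and 798 bp downstream, in intron 1, 71 bp apart from each other. RefSeq (GRCh38.p14) has 2 further MCM7 starts there, 643 and 868 bp downstream of the canonical start. The CHD8 summit was 84 bp from the first and the TRRAP summit 70 bp from the second of these. The second TRRAP summit lay 477 bp upstream, 66 bp from another annotated MCM7 start. It was 231 bp from the start of AP4M1, an adaptor complex gene that begins 246 bp away on the other strand. Position alone cannot tell which gene this peak belongs to. The E2F word of the start site, starting 9 bp upstream, lay inside this second TRRAP peak and not inside the first.

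MCM4 shares its promoter with PRKDC, the gene of the DNA-dependent protein kinase, which starts 805 bp upstream on the other strand. One CHD8 peak (chromosome 8, 47959977 to 47960971) covered both starts, with a fold of 18.6 and 41 fragments (29.4 to 55.6). TRRAP had 2 peaks, at 47959929 to 47960329 (fold 10.1, 20 fragments, 12.2 to 30.9) and 47960735 to 47961133 (fold 6.73, 13 fragments, 6.92 to 22.2). The CHD8 summit and the first TRRAP summit lay 699 and 721 bp upstream of the canonical MCM4 start, 22 bp apart. They were 106 and 84 bp from the PRKDC start, and 57 and 35 bp from another annotated MCM4 start. The second TRRAP summit lay 135 bp into the gene, in intron 1. Which gene these peaks belong to cannot be told apart from position alone. Counting canonical starts only, a coding neighbour began within 1 kb on the other strand at 2 of the 10 genes, MCM4 and MCM7, beside 9.46% of all genes. Both peaks were present at 59.9% of genes with such a neighbour and 31.2% of those without, and at 5 of the 8 licensing genes without one by this count. MCM2 is among these 5, although a start of TPRA1 other than the canonical one lies near it.

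MCM5, another ring subunit, showed the widest split between the lists. Its CHD8 peak (chromosome 22, 35399375 to 35400330) had a fold of 22.6 and 50 fragments (37.1 to 65.9), above 88.5% of promoter peaks. The TRRAP peak (35399881 to 35400005) had a fold of 5.78 and 11 fragments (5.49 to 19.7), at percentile 3.38, and its 125 bp is the smallest width in the list. A CHD8 percentile that exceeded the TRRAP percentile by at least as much occurred in 0.985% of genes with both peaks. MCM5 was picked as the widest of the 7 genes in this direction. Its TRRAP interval held the median of 17 fragments over all genes with TRRAP, and its CHD8 interval lay above the median of 26 over all genes with CHD8. The summits were 26 bp apart, 238 and 212 bp upstream of the start. The double E2F word started 199 bp upstream, 16 bp from the TRRAP and 42 bp from the CHD8 summit (measured to the middle of the word on the gene's strand).

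The upstream sequence of MCM5 is printed because it holds the whole TRRAP peak, both summits and the double word, and that of MCM6 because it holds 2 double words with no TRRAP peak. Capitals mark E2F words and the word CCAAT, which NFY binds. On the opposite strand that word reads ATTGG.
MCM5, chr22:35399880-35400133, plus strand: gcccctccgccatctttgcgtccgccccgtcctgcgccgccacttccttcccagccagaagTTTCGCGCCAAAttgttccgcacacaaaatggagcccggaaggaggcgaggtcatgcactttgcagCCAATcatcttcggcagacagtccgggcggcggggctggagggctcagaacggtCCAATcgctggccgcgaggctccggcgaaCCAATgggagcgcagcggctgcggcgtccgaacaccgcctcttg
MCM6, chr2:135876444-135876643, minus strand: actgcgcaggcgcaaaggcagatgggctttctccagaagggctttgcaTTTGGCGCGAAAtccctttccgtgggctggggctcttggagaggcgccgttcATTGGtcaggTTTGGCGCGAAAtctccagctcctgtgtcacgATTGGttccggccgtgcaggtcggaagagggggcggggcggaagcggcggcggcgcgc

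MCM6, the remaining subunit with the double word, had the weakest CHD8 signal of the set. Its stronger CHD8 peak (chromosome 2, 135876328 to 135876613) had a fold of 6.66 and 14 fragments (7.65 to 23.5), at percentile 3.92 of promoter peaks, with a summit in the 5′ UTR in exon 1, 59 bp downstream of the start. A second CHD8 peak at 135876098 to 135876272 in intron 1 had a fold of 5.77 and 12 fragments (6.20 to 21.0). The double words lay inside the first peak. The nearest of them was 145 bp from its summit, measured as at MCM5 to the middle of the word on the gene's strand. The nearest TRRAP summit of the list was 133879 bp from the MCM6 start. In all genes with a CHD8 promoter fold below 7, 29.1% had a TRRAP promoter peak.

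At MCM2 both proteins sat on the start site and on the double E2F word. The CHD8 peak (chromosome 3, 127598291 to 127598581) had a fold of 8.87 and 19 fragments (11.4 to 29.7), and the TRRAP peak (127598198 to 127598709) had a fold of 9.12 and 18 fragments (10.67 to 28.45). The CHD8 summit lay 13 bp upstream and the TRRAP summit 31 bp downstream, in the 5′ UTR in exon 1. The word, starting 2 bp downstream, fell between them. An E-box (CACGTG, the word MYC and MAX bind) started 11 bp upstream, inside both peaks and 4 bp from the CHD8 summit. TPRA1 runs the other way, and its outermost annotated start was 144 bp upstream of MCM2.

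The MCM2 peaks were also unusual in width. The TRRAP peak measured 512 bp and the CHD8 peak 291 bp. CDT1 was similar, with 534 bp and 531 bp. A TRRAP peak at least as wide as the CHD8 peak was found in these 2 of 7 genes and in 7.94% of all genes with both. The other 5 had CHD8 peaks between 2.48 (MCM4) and 7.65 (MCM5) times as wide, at or above the median of 2.48 times over all genes with both.

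At MCM3 the CHD8 peak (chromosome 6, 52284174 to 52285167) had a fold of 10.2 and 22 fragments (13.8 to 33.3), with a summit 319 bp upstream. The TRRAP peak (52284587 to 52284826) had a fold of 6.73 and 13 fragments (6.92 to 22.2), with a summit 37 bp upstream. These summits were 282 bp apart, the largest gap among the 7 genes, whose median was 60 bp against 105 bp over all genes with both. The E2F word of the start site was 36 bp from the TRRAP summit and 318 bp from the CHD8 summit, and the upstream word was 133 bp from the TRRAP and 148 bp from the CHD8 summit.

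The loading factors CDC6 and CDT1 were in the lower range for CHD8. For TRRAP, CDT1 was the higher of them, with overlapping intervals. CDC6 had a CHD8 peak (chromosome 17, 40287500 to 40288220) with a fold of 9.31 and 20 fragments (12.2 to 30.9), and a TRRAP peak (40287544 to 40287688) with a fold of 6.73 and 13 fragments (6.92 to 22.2). CDT1 had a CHD8 peak (chromosome 16, 88803606 to 88804136) with a fold of 7.54 and 16 fragments (9.15 to 25.98), and a TRRAP peak (88803344 to 88803877) with a fold of 11.5 and 23 fragments (14.6 to 34.5). CDT1 was the reverse of MCM5, at percentile 10.1 for CHD8 and 74.95 for TRRAP. A gap at least as wide in that direction occurred in 2.98% of genes with both. CDT1 was picked as the widest of the 7 in that direction. Its TRRAP interval held the median of 17 over all genes with TRRAP. Its CHD8 interval ended just below the median of 26 over all genes with CHD8.

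The CDC6 summits lay 229 bp (CHD8) and 289 bp (TRRAP) upstream. Its E2F word started 7 bp downstream of the start, inside the CHD8 peak and outside the TRRAP peak. The CDT1 summits lay 81 bp (CHD8) and 251 bp (TRRAP) upstream, and its word, starting 35 bp upstream, was inside both peaks.

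GMNN encodes geminin, the inhibitor of CDT1. Its CHD8 peak (chromosome 6, 24774643 to 24775654) had a fold of 14.2 and 31 fragments (21.06 to 44), and the summit lay 164 bp upstream. No TRRAP peak was near: the closest summit was 53477 bp from the start. Over all genes the share with TRRAP rose with the CHD8 fold, from 41.6% at folds of 7 to below 9 through 56.6% (9 to below 11), 65.3% (11 to below 15, the band of GMNN) and 72.9% (15 to below 25) to 77.4% at 25 and above. RefSeq has another GMNN start 476 bp downstream, inside the CHD8 peak. The RefSeq table held promoters for 8 of the 10 genes. An E2F word started 80 bp before this further GMNN start, outside the start site window used for the counts and inside the CHD8 peak, and is printed in capitals for comparison with the others.
GMNN, chr6:24775323-24775350, plus strand: ctgggtcggtTTTGGCGCgctctcactt

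MCM10, which acts after loading, had a CHD8 peak (chromosome 10, 13161306 to 13161864) with a fold of 10.6 and 23 fragments (14.6 to 34.5), and the nearest TRRAP summit was 138066 bp from its start. It had no E2F word within 600 bp of the start site. Its summit, 102 bp upstream, lay on a pair of CCAAT words that start 118 and 105 bp upstream, printed here in capitals to show what sequence a CHD8 summit without an E2F word sat on.
MCM10, chr10:13161434-13161461, plus strand: gggcgtCCAATgacgtaaaCCAATccga

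**Figure D2:**
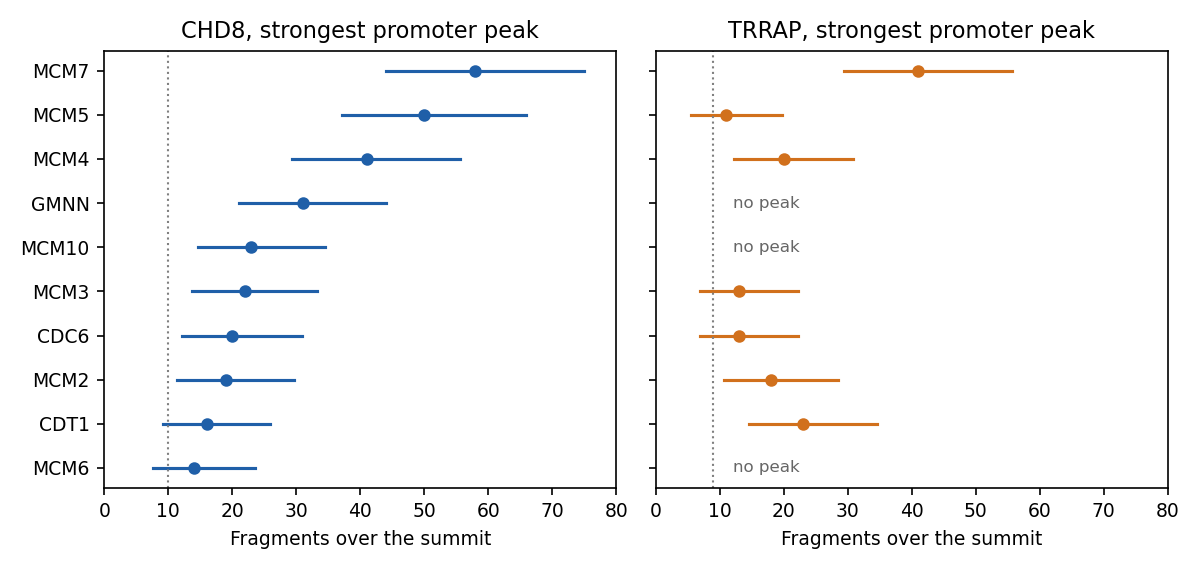
Fragments over the summit of the strongest promoter peak of each gene, with exact Poisson 95% intervals, for CHD8 (left) and TRRAP (right), and genes ordered by CHD8. The dotted line marks the lowest peak of the list, 10 and 9 fragments. MCM7, with 58 and 41 fragments, is on top in both panels, while MCM5 has 50 CHD8 and 11 TRRAP fragments.

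In order of CHD8 fragments the genes ran MCM7 (58), MCM5 (50), MCM4 (41), GMNN (31), MCM10 (23), MCM3 (22), CDC6 (20), MCM2 (19), CDT1 (16) and MCM6 (14). The intervals of neighbours in that order overlapped throughout. The intervals of MCM7 and MCM5 did not overlap those of the 6 lowest, from MCM10 down, and that of MCM7 began just above the end of that of GMNN. In order of TRRAP the genes ran MCM7 (41), CDT1 (23), MCM4 (20), MCM2 (18), MCM3 and CDC6 (13 each) and MCM5 (11), and the intervals of MCM2, MCM3, CDC6 and MCM5 did not overlap that of MCM7. The other 6 TRRAP intervals all overlapped each other. The 3 genes without TRRAP had 31 (GMNN), 23 (MCM10) and 14 (MCM6) CHD8 fragments, and the 7 with TRRAP had 16 (CDT1) to 58 (MCM7). Whether the lack of TRRAP goes with the CHD8 level was not tested.

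**Figure D3:**
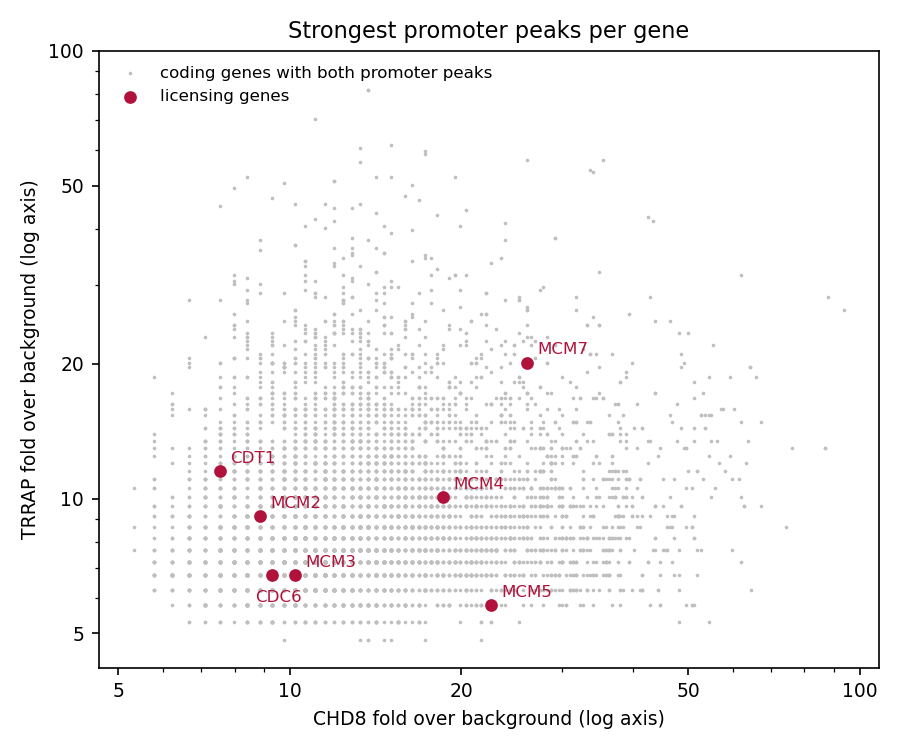
Fold of the strongest CHD8 (x axis) and TRRAP (y axis) promoter peak for each protein-coding gene with both (grey), on log axes, with the 7 licensing genes in red. The red points run from CDT1 at 7.54 and 11.5 to MCM7 at 26.1 and 20.1, inside the grey cloud, and MCM5 lies at its lower edge for TRRAP.

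The CHD8 peak covered the canonical start site in all 10 genes, beside 83.5% of genes with a CHD8 promoter peak. The strongest TRRAP peak did so in 3 of 7 genes (MCM2, MCM3 and CDT1), beside 57.2%. With the second TRRAP peaks of MCM4 and MCM7 counted too, a TRRAP peak covered the start in 5 of 7 genes, beside 63.4%. The CHD8 summit was upstream of the start in 8 of 10 genes, beside 58.3%, and the TRRAP summit in 5 of 7, beside 63.3%. The median distance from summit to start was 196.5 bp for CHD8 and 251 bp for TRRAP, against 109 and 133 bp over all genes. Measured to the nearest start of any annotated transcript of the gene, the medians of the set fell to 91.5 and 126 bp, with MCM4 and MCM7 moving most.

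An E2F word lay somewhere inside the CHD8 peaks of 9 genes, all but MCM10. One lay inside a TRRAP peak of 5 of the 7 genes with TRRAP, all but MCM4 and CDC6. The share of all genes with a word inside a peak was not computed, so these counts have no background. Peaks of the set were also wider, which gives more room for a word. The median width was 838.5 bp for CHD8 and 401 bp for TRRAP, against 638 and 269 bp over all genes with a promoter peak. Fewer words were close to the summits. Within 100 bp of the strongest CHD8 summit, 3 of 10 genes (MCM2, MCM5 and CDT1) had a word, beside 3.77% of all CHD8 promoter peaks. For TRRAP, 3 of 7 genes (MCM2, MCM3 and MCM5) did, beside 4.66%. Both counts are of genes chosen as E2F targets, which itself favours such words.

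Presence of a word and presence of TRRAP can be set side by side. Of the 8 genes with an E2F word in the start site window 7 had both peaks, and of the 2 without, MCM10 and GMNN, 0 had TRRAP. Over all protein-coding genes, both peaks were present at 51.1% of the 873 with such a word and 33.2% of the 19160 without. CHD8 was present at 78.4% of those with a word, and TRRAP at 65.2% of the genes with both a word and CHD8. The other words searched were CCAAT, present in 7 of 10 start site windows beside 36.1% of all genes, and the SP word GGGCGG, present in 8 beside 61.3%. The E-box was present in 3 (MCM2, MCM7 and GMNN) beside 8.76%, the ETS word CCGGAA in 2 beside 22.8%, and the CHR words TTTGAA and TTCGAA, known from genes of late cell cycle phases, in 1 (MCM6) beside 12.8%.

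**Figure D4:**
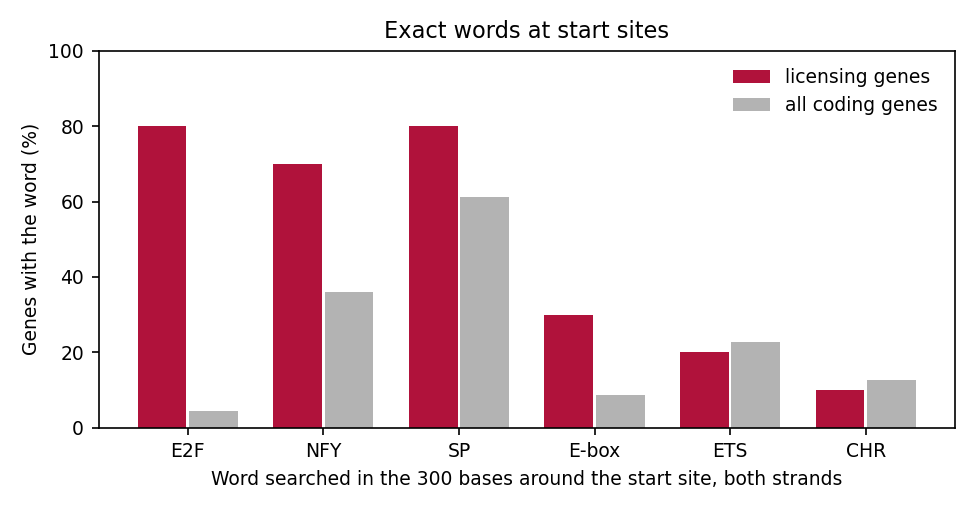
Share of genes (y axis, %) with each exact word in the 300 bases around the canonical start site, for the 10 licensing genes (red) and all 20033 protein-coding genes (grey). The E2F word stands at 80% against 4.36%, CCAAT (NFY) at 70% against 36.1%, and the ETS and CHR words are no more common than in all genes. The 10 genes were chosen as E2F targets, which itself favours the E2F word.

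A wider list of 27 genes of the same pathway, also chosen with earlier results of these data known, gave a background within it. CHD8 was at 25 of these promoters, beside 55.9% of all protein-coding genes, and both proteins at 16 (59.3%), beside 34.0%. All 27 had a CpG ratio of at least 0.6, the lowest being 0.623 (ORC4). Among all protein-coding genes with such a ratio, 77.7% had CHD8 and 48.8% had both. The 16 of 25 genes with CHD8 that also had TRRAP stand beside 60.7% of all genes with CHD8. All 6 genes of the origin recognition complex, which marks origins for loading, had CHD8 and 3 (ORC1, ORC5 and ORC6) had both. All 4 GINS genes, whose products join the helicase at firing, had CHD8 and 2 had both. Genes with CHD8 alone were ORC2, ORC3, ORC4, MCM8, DBF4B, CDC45, GINS3, GINS4 and MTBP. GMNC and MCIDAS, relatives of geminin that act in multiciliated cells, had neither peak.

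Among these 27, CDC45, a helicase cofactor that shares its promoter region with UFD1 (727 bp away), had the highest CHD8 fold, 42.0 (94 fragments), and no TRRAP peak. ORC5 had the lowest CHD8 fold, 6.66. DBF4, the activator of the CDC7 kinase that triggers firing, had the highest TRRAP fold, 51.2 (106 fragments), above 99.76% of TRRAP promoter peaks, at a CHD8 fold of 11.96, the median of promoter peaks. Its start is 133 bp from that of SLC25A40. ORC1 and MCM9 had the lowest TRRAP fold, 6.26. The highest values of the pathway in either list were therefore outside the 10 genes, where MCM7 was highest with 26.1 and 20.1.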

How the data were processed

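The files were 2 deposited peak lists in narrowPeak layout, 1 for the CHD8 and 1 for the TRRAP library. The submitters' processing notes name HISAT2, MACS2 version 2.1.1.20160309 and the build GRCh38, with no settings. The name of the CHD8 list carries an FDR of 0.0001 and that of the TRRAP list 0.001. The control and filters are not given in the sources used here. Per the file layout, each peak carries the authors' fold (a linear ratio over the caller's background), deposited −log10 p and q values, a score of the authors (10 times −log10 q, rounded down) and a summit. No peak of the main chromosomes ran past its end in GRCh38.

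Peaks were set beside GENCODE release 44. A promoter peak overlapped the window of 1 kb on either side of the canonical start site. Where a gene had more than 1, the peak of higher −log10 q, then fold, then width, was taken. Gene regions ran from 5 kb upstream to the gene's end, and peaks overlapped if they shared at least 1 bp. All coordinates count from 1.

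The deposited folds of a list lay on even steps, 0.442 (CHD8) and 0.478 (TRRAP). Solving MACS2's fold for a whole number of fragments gave 1 scale and 1 background per list, 1.12 (CHD8) and 0.91 (TRRAP) fragments. The p-values computed from these were within 0.01 on the −log10 scale of the deposited ones in 99.923% and 99.925% of peaks. Apart from the 18 CHD8 and 11 TRRAP peaks outside that tolerance, the values of a list thus fitted a single background with no local correction. Intervals are exact Poisson intervals (95%) of these fragments and cover counting error only. Total reads are unknown.

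With 1 library per antibody there are no replicates, and no p-value was computed. The members and gene lists were chosen with earlier results of these data known. All 10 members are named. Of the other licensing genes, those with the extreme folds and those lacking a peak are named. Intervals came from scipy 1.17.1, tables from pandas 2.3.3 with numpy 2.4.6, sequences were read with pysam 0.24.0, and figures were drawn with matplotlib 3.10.9, all in Python 3.11.15. The recovery of fragments was tested on simulated data. Alternatives covered the promoter window, start sites, peak rank, q-value, region, overlap rule and word search.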

Additional observations from a re-analysis of the deposited data

How the results depend on the processing

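The 13 reported counts and medians were recomputed under 57 alternatives, of which 43 left the value close (counts within 1.5 times) and 14 moved it. The numbers of genes with CHD8 (10), TRRAP (7) and both peaks (7) were the same with promoter windows of 500 and 2500 bp and with the start sites of all transcripts, and the last 2 also with TRRAP peaks of a q-value of at most 0.0001. Keeping only peaks above the median rank of their list left 4 genes with TRRAP, 2 with both, 7 CHD8 and 5 TRRAP peaks in the gene regions, 3 TRRAP peaks overlapping CHD8 and 2 CHD8 peaks overlapping TRRAP. It left 4 of the other licensing genes with both peaks and a median distance of 486 bp from TRRAP summit to start site. This alternative keeps fewer peaks by construction. Requiring peak centres within 200 bp left 3 TRRAP and 3 CHD8 peaks overlapping. With the starts of all transcripts the median summit distance was 91.5 bp for CHD8 and 126 bp for TRRAP, since more starts can only shorten it. An E2F word near the CHD8 summit was found in 6 genes with 250 bp on each side and in 8 with the fixed start site window. With a promoter window of 500 bp the median TRRAP fold was 6.73. No paired analysis was possible because each antibody had 1 library and no test was made. Low counts over summits (14 to 58 for CHD8, 11 to 41 for TRRAP) limit the order of the genes. The absence of a TRRAP peak says only that none entered the list, whose lowest peak had 9 fragments and whose filters are not given.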

Other observations

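The 4 genes outside the set with the 12-letter double E2F form at the start site were MYCN, MSH3, TIPIN and DMC1. MYCN had a CHD8 fold of 13.3 (29 fragments) and a TRRAP fold of 7.69 (15 fragments). MSH3 (13.3, 29 fragments) and DMC1 (7.10, 15 fragments) had CHD8 without TRRAP, and TIPIN had neither. Over all 7 genes with the form, 6 had CHD8, beside 55.9% of all protein-coding genes, and 3 had TRRAP, beside 34.9%.

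The genes whose percentiles of CHD8 and TRRAP fold and width lay closest to the medians of the 7 licensing genes with both peaks, over 4 values per gene, were ZNF652, PRKD3 and ADD3, at distances of 7.35, 8.53 and 9.60 percentile points. Their CHD8 folds were 9.75, 10.2 and 9.75 and their TRRAP folds 9.60, 9.12 and 8.65.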
